A study of Mus musculus with 4 samples.

Results

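The Runx genes Runx1, Runx2 and Runx3 and the gene of their shared partner, Cbfb, were examined for peaks of the transcription factor p63 in mouse epidermis at postnatal day 0. A peak belonged to a gene when its summit lay in the gene body or within 50 kb on either side, on mm10 coordinates, and the member peaks were chosen by this position alone. The 4 genes had 17 peaks, 6 of the 10616 peaks listed in WT and 11 of the 14593 listed in alphaKO. The genes themselves were proposed with earlier results of these data in view, so their peak numbers are given as a description, without a test.

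Each genotype was represented by 1 p63 chromatin immunoprecipitation (ChIP-seq) library of newborn back epidermis, wild type in one case (WT) and labelled p63 alphaKO in the other (alphaKO). All tissue was freed from the dermis with Dispase, and the same antibody, EPR570, served both genotypes. An input library accompanied each ChIP and was not analysed here. How many animals went into a library, their strain, how the alphaKO allele was made and which part of p63 the antibody binds were not given in the sources used here. No difference between genotypes could be tested, because each had 1 library and hence no replicate. In bulk tissue, fewer cells with p63 at a site and less p63 at that site in each cell cannot be told apart. The keratinocyte genes Krt5, Krt14, Krt10 and Trp63 all had peaks of both lists in their windows, as did 40.9% of all protein-coding genes. Such peaks do not measure their transcripts or check the genotype label.

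Runx proteins are transcription factors that bind DNA through a Runt domain, and Cbfb, which does not contact DNA itself, strengthens that binding as the common partner of all Runx proteins. Runx1 is known for its role in blood stem cells and in the activation of hair follicle stem cells, Runx2 for the differentiation of bone-forming cells, and Runx3 for lymphocytes and sensory neurons. Mammalian Runx genes typically have a distal and a proximal promoter. In cultured human keratinocytes, p63 has been reported to take part in the control of RUNX1, which is the background to looking at p63 on these genes in skin.

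The first listed starts of the Runx genes are shown because they carry a stretch of sequence that the rule did not use and that none of the other start windows held, apart from 1 that covers the same bases. RefSeq windows of GRCm38.p6, from 250 bases before a start to 50 bases after it, were matched for 4 of 4 genes, with 2 starts each for Runx1 and Runx3 and 1 each for Runx2 and Cbfb. The longest run common to the first starts of Runx1, Runx2 and Runx3 was 18 bases long. It is printed in capitals, 5′ to 3′ on the strand of the gene, within 30 bases of reference sequence.

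Runx1 (chr16:92826025-92826054, minus strand): cataaaCAACCACAGAACCACAAGttgggt

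Runx2 (chr17:44814583-44814612, minus strand): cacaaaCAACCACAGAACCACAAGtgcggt

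Runx3 (chr4:135120503-135120532, plus strand): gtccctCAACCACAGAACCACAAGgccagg

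The run begins at base 27 of the Runx1 transcript and base 22 of the Runx2 transcript, counted from the start as base 1, and 136 bases before the start of Runx3. Of 32851 windows in the table, 4 held it on either strand, those of the Runx genes and that of Gm16225, which lies on the opposite strand and overlaps the Runx3 window. The run holds 2 copies of the RUNX recognition sequence, which reads TGTGGT and was searched on both strands. At least 1 copy was found in 16.8% of all windows and at least 2 copies in 1.81%. The first starts of Runx1, Runx2 and Runx3 held 2, 3 and 2 copies, and the second starts of Runx1 and Runx3 and the start of Cbfb held none. The core of the full site of the p53 family, to which p63 belongs, was found in 7.22% of all windows and in none of the 6 windows of these genes. The half-site letters CATG, present in 61.1% of windows, occurred once at Runx2 and once at Cbfb.

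No peak of either list overlapped any of these 6 start windows. At the first start of Runx1 the nearest summit was 368 kb away in WT and 41.6 kb away in alphaKO, and at its second start 240 kb and 47.2 kb away. At Runx2 the nearest summit was 37.0 kb from the start in both lists. At Cbfb it was 82.9 kb away in both lists. At Runx3 it was 167 kb from the first start in WT and 180.4 kb in alphaKO, and 135 kb and 149 kb from the second. No member peak thus lay within 37.0 kb of a listed start of the 4 genes.

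**Figure D1:**
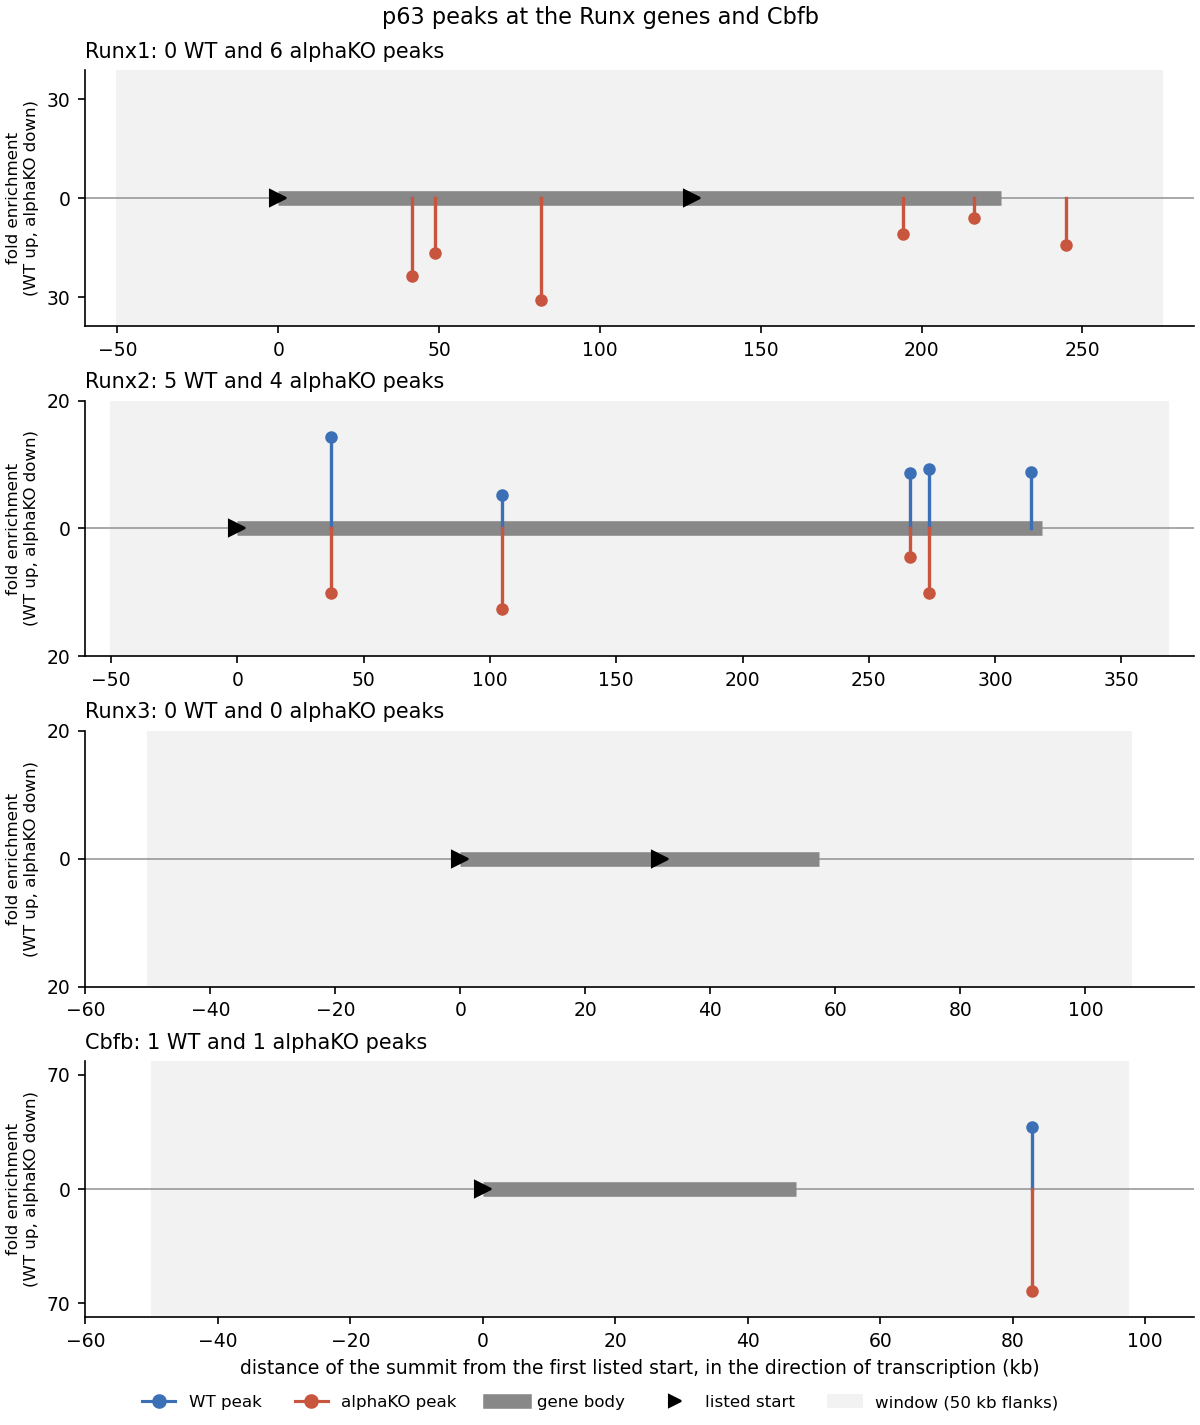
Position of each p63 summit (horizontal axis, kb from the first listed start in the direction of transcription) and its fold enrichment (vertical axis, WT upward in blue, alphaKO downward in red) at the 4 genes. Runx1 has 6 alphaKO peaks and no WT peak, Runx2 has 5 WT and 4 alphaKO peaks, Runx3 has none, and Cbfb has 1 of each outside its body.

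The genes showed 4 different arrangements. Runx1 had 6 peaks in alphaKO and none in WT, Runx2 had 4 and 5, Cbfb had 1 and 1, and Runx3 had none in either list. With the same 50 kb flanks, 47.1% of 21883 protein-coding genes had a WT summit and 55.0% an alphaKO summit. Summits of both lists were found at 40.9% of genes, of alphaKO alone at 14.1%, of WT alone at 6.14% and of neither at 38.8%. With 2 of 4 genes marked in WT and 3 of 4 in alphaKO, the family as a whole lay near this background. A gene with no listed peak can still hold a site below the threshold of the peak caller. Numbering of the authors' peaks ran without a break across all 4 windows in both lists, so no numbered peak was missing there.

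Runx1 (chromosome 16, 92601466 to 92826074, minus strand, 225 kb) carried the 6 alphaKO peaks in 2 groups, 5 of them in the gene body. A fold enrichment is the authors' ratio of the pileup of reads at the summit to the caller's local background, and describes a peak within its own list. Between the distal and the proximal start, which lie 129 kb apart, were 3 peaks. The strongest of all was the one at 92744161 to 92744754, which had a pileup of 255 and a fold of 30.96. It lay 81.5 kb past the distal start and 47.2 kb before the proximal one. The peak nearest to the distal start, at 92784231 to 92784669, had a pileup of 137 and a fold of 23.6, and only 7.22 kb separated its summit from that of the third peak, at 92777045 to 92777395, with a pileup of 88 and a fold of 16.6.

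Past the proximal start the Runx1 peaks were weaker. The peak at 92631428 to 92631918 had a fold of 10.7 and a pileup of 52. The peak at 92609640 to 92609937 had a fold of 5.88 and a pileup of 31, which was the lowest pileup of any member peak in alphaKO. A sixth peak, at 92581023 to 92581366, lay 20.3 kb beyond the end of the gene and had a fold of 14.2 and a pileup of 68. Runx1 was the nearest protein-coding gene to it. The 3 peaks between the starts were the only Runx1 peaks above the alphaKO list's median fold of 15.5, with 79.5%, 69.7% and 53.7% of the list at or below their folds. Whether these peaks fall in exons or introns was not analysed here.

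None of the 6 Runx1 peaks met a WT peak by even 1 bp, where 48.4% of all alphaKO peaks did. Over the alphaKO peaks with folds between the lowest and highest of the Runx1 peaks, 40.5% of 10611 had a WT partner. This share was highest near the folds of the 2 strongest Runx1 peaks. Among 919 alphaKO peaks with a fold within 10 percent of the strongest Runx1 peak, 64.5% had a WT partner (95% Wilson interval 61.4 to 67.6, covering counting error only), and for the peak at 23.6 the share was 56.7% of 1111 (53.8 to 59.6). Near the fold of 10.7 it was 30.6% of 1565, and near the lowest, 5.88, it was 40.8% of 497. In the WT list, 95% of peaks had a pileup of 29 or more, and 95% had a fold of 3.14 or more. These limits are on the WT scale and do not show whether WT would have listed the Runx1 sites. Median pileups were 75 in WT and 106 in alphaKO. Over the sites shared by both lists, median folds were 11.5 in WT and 21.0 in alphaKO. The caller's local background at the Runx1 peaks, recovered from pileup and fold, was 3.85 to 7.27 in units of pileup, beside a median of 5.81 in the alphaKO list.

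Few genes combined a WT list without a peak with so many alphaKO peaks. Of 21883 protein-coding genes, 0.0274% (6 genes, Runx1 among them) had no WT summit and at least 6 alphaKO summits in their windows. The limit of 6 is the alphaKO count of Runx1 itself, so this share is a description and not a test. The alphaKO list is also the longer one. With equal list lengths Runx1 had 4 alphaKO peaks, and the share of genes at that level was not counted. Gene length matters for such counts. Of the 998 other genes within 1.5 times the length of Runx1, 444 (44.5%) had no WT summit, 94 (9.42%) had at least 6 alphaKO summits, and 2 had both properties. The median of these genes was 1 WT and 2 alphaKO summits. The protein-coding genes whose 2 peak numbers and 2 strongest folds lay closest to those of Runx1, as a Euclidean distance of log2 values over these 4 measures from the 2 libraries, were Ppargc1a (0 WT and 7 alphaKO peaks, strongest fold 30.97, distance 0.193), Prelp (0 and 5, 32.0, distance 0.227) and Snx29 (0 and 5, 26.6, distance 0.307).

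The lack of WT peaks reached well beyond Runx1 itself. The closest WT summits on either side were at 92457769 in Rcan1 (fold 12.0) and at 93424746 (fold 11.1), 144 kb and 599 kb from the gene, which left 967 kb of chromosome 16 without a WT summit. A long stretch without a WT summit was not particular to Runx1. At Runx2 the next WT summit at lower coordinates lay 961 kb from the gene. The Runx1 interval was examined after its values were seen. It held 10 alphaKO summits without a WT partner, the 6 of Runx1 and 4 others with folds of 9.91, 10.9, 14.7 and 14.5. The third of these lay in Clic6, the only other protein-coding gene wholly inside, 98.2 kb from Runx1. Of 10595 intervals between neighbouring WT summits, it ranked 584 by length, and 8 held at least 10 such alphaKO summits. Among 577 intervals within 1.5 times its length, with a median of 2 such summits (quartiles 1 and 3), the Runx1 interval was the only one to reach 10.

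**Figure D2:**
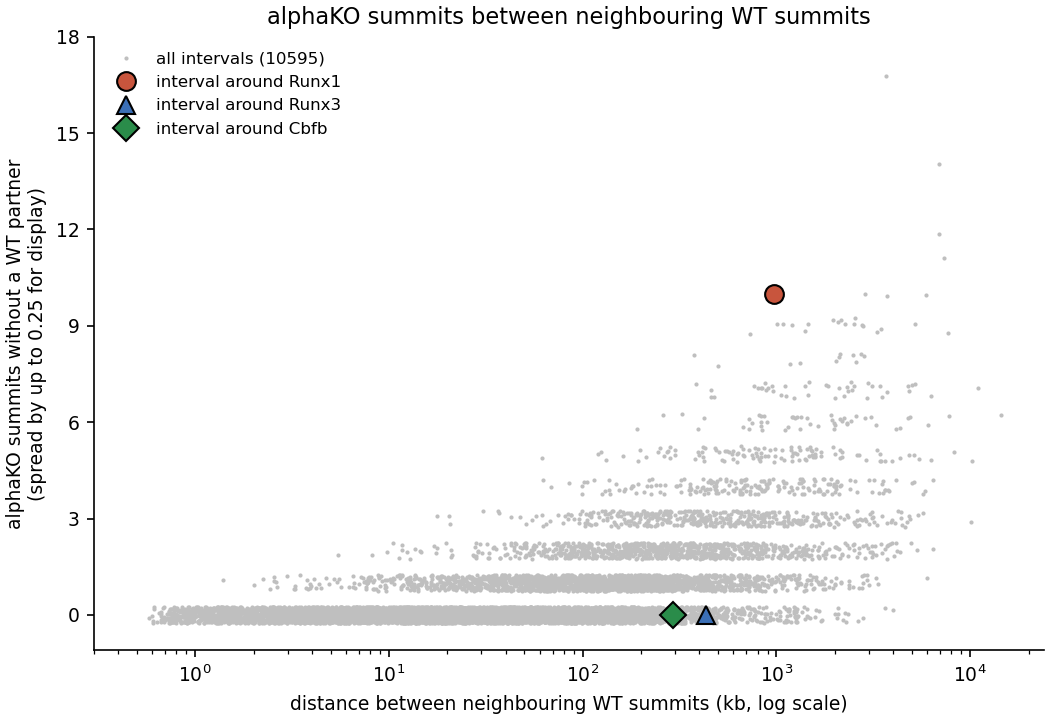
Each grey point is 1 of 10595 intervals between neighbouring WT summits, by its length (horizontal axis, kb, log scale) and the number of alphaKO summits without a WT partner inside it (vertical axis, spread slightly for display). The interval around Runx1 is 967 kb long and holds 10, and those around Runx3 and Cbfb hold none.

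Runx2 (chromosome 17, 44495987 to 44814797, minus strand, 319 kb) had peaks of both libraries at the same places. The 5 WT peaks and 4 alphaKO peaks all lay in the gene body, and 4 sites were shared. Of all peaks, 66.6% in WT and 48.4% in alphaKO met a peak of the other list. Beside genes within 1.5 times its length, 10.6% of which had at least 5 WT summits and 26.6% at least 4 alphaKO summits, the number of WT peaks at Runx2 was in the upper part of the range.

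The shared site nearest to the start of Runx2 lay 37.0 kb past it, at 44776978 to 44777786 in WT and 44777452 to 44777763 in alphaKO, with summits 3 bp apart. It had a pileup of 139 and a fold of 14.2 in WT, the strongest of the gene in that list, and a pileup of 126 and a fold of 10.06 in alphaKO. Supt3, a gene of the SAGA co-activator complex, starts at this place on the opposite strand, inside the body of Runx2. Its RefSeq start is shown because it is the only promoter window that a member peak overlapped. The 250 bases before the start of Supt3 (chr17:44776916-44777165, plus strand, GRCm38.p6) are printed 5′ to 3′, with the 188 bases covered by the WT peak in capitals.

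Supt3: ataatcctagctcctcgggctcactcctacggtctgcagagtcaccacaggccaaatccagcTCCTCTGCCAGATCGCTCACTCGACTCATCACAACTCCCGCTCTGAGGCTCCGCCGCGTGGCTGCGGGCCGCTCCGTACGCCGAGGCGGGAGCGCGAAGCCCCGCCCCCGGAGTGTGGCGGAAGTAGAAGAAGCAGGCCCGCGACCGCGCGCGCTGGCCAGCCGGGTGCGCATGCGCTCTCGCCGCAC

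Both summits lay past the start of Supt3, by 455 bp in WT and 458 bp in alphaKO. The WT peak was 809 bp wide and reached back over the start, whereas the alphaKO peak was 312 bp wide and began 286 bp past it. The Supt3 window held 1 CATG and no full-site core of the p53 family. The bases under the summits themselves were not analysed here.

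The second shared site of Runx2, 105 kb past the start, went the other way in width and fold. It spanned 44709897 to 44710202 in WT with a pileup of 31 and a fold of 5.26, the weakest WT peak of the gene. In alphaKO it spanned 44709767 to 44710159 with a pileup of 79 and a fold of 12.6, the strongest alphaKO peak of the gene. The summits were 42 bp apart, the widest separation among the shared member sites, where the median over all 7054 shared sites was 8 bp.

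The remaining shared sites of Runx2 formed a close pair towards the end of the gene. They were 7.31 kb apart in WT and 7.30 kb apart in alphaKO. One, at 44540722 to 44541033 in WT and 44540699 to 44541451 in alphaKO, had pileups of 76 and 116 and folds of 9.31 and 10.03, with summits 2 bp apart. The other, at 44547969 to 44548439 in WT and 44548058 to 44548400 in alphaKO, had pileups of 71 and 40 and folds of 8.70 and 4.44, with summits 8 bp apart. The peak listed in WT alone lay 40.5 kb further on, at 44500216 to 44500696, with a pileup of 50 and a fold of 8.86, close to the median fold of 8.44 of the WT list.

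The Runx2 peaks stood lower within the alphaKO list than within the WT list. All 4 alphaKO peaks were below that list's median fold, and 4 of the 5 WT peaks were above theirs. Since the lists differ in length and in their level of fold, the ranks were also taken over the same 7054 sites shared by both. At 83.7% of these sites the fold was higher in alphaKO, with medians of 21.0 in alphaKO and 11.5 in WT. A higher alphaKO fold at a shared member site is therefore the common case. The site at Supt3 stood at the 63.2 percentile of WT folds and the 19.7 percentile of alphaKO folds. The pair towards the end of the gene stood at 36.0 and 31.9 in WT and at 19.6 and 3.47 in alphaKO. The site 105 kb past the start had the opposite order, at 8.51 in WT and 27.9 in alphaKO. Over all shared sites the WT percentile minus the alphaKO percentile had quartiles of -12.0 and 12.6, and the 4 Runx2 sites, at 43.5, 16.4, 28.4 and -19.4, lay outside them. By definition, as many shared sites lie outside these quartiles as between them, so such a position is common.

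**Figure D3:**
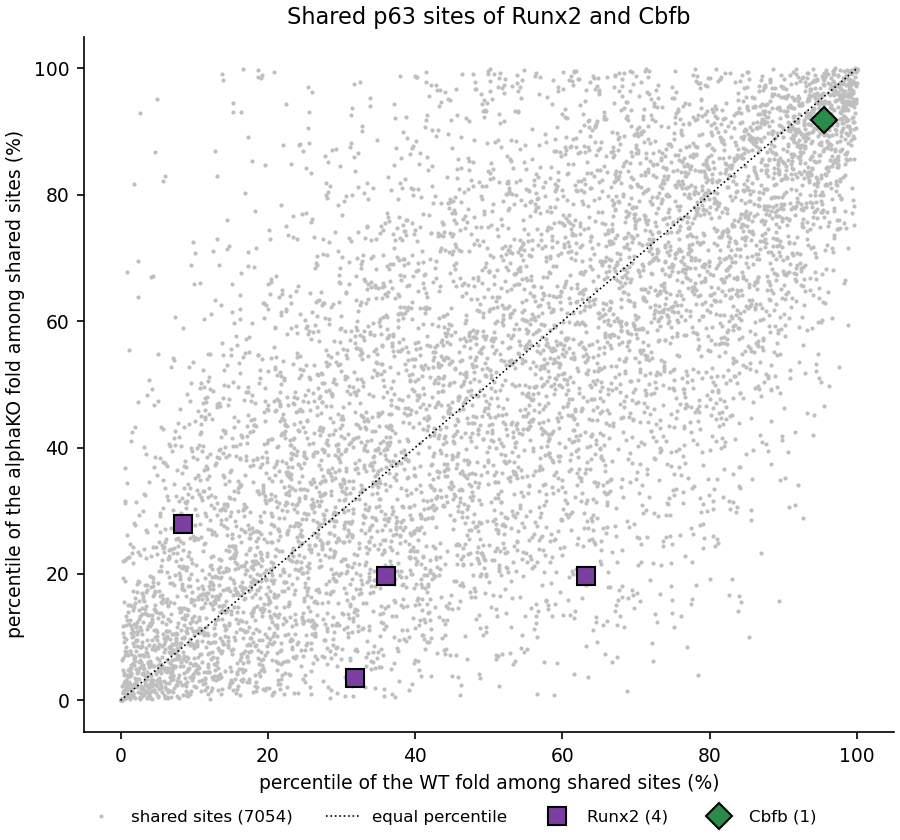
Percentile of the fold among the 7054 shared sites in WT (horizontal axis) and in alphaKO (vertical axis), each site as a grey point. Of the 4 Runx2 sites, 3 lie below the line of equal percentile and 1 above it, and the Cbfb site lies near the upper right corner.

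The caller's local background differed between these sites in alphaKO, without a steady relation to their folds. It was recovered from the pileup and the fold, so it is not independent of the fold. At the 3 Runx2 sites with the lower alphaKO percentiles it was 11.6, 10.7 and 8.24 in units of pileup, above the alphaKO list's median of 5.81, and at the site 105 kb past the start it was 5.36. In WT the same sites had 8.83, 7.27, 7.27 and 5.08, beside a median of 8.31. The part of the local background in the order of the folds was not tested. Genes with the pattern most like that of Runx2 in these 4 measures were Hes1 (5 WT and 4 alphaKO peaks, strongest folds 13.8 and 10.9, distance 0.199), a transcriptional repressor acting downstream of Notch, Lmna (6 and 4, 13.2 and 14.3, distance 0.297), which encodes lamin A/C, and Sema4a (5 and 4, 13.2 and 16.0, distance 0.334). Lmna and Sema4a share their strongest WT fold.

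Cbfb (chromosome 8, 105170674 to 105217989, plus strand, 47.3 kb) had no peak in its body and 1 strong shared site in its window. The site lay 35.5 kb beyond the end of the gene in WT and 35.6 kb in alphaKO, at 105253327 to 105253898 in WT and 105253321 to 105253825 in alphaKO, with summits 5 bp apart. Its pileup was 332 in WT and 477 in alphaKO, the highest of the member peaks in either list. The fold was 37.9 in WT, which ranked 314 of 10616, and 62.7 in alphaKO, which ranked 741 of 14593. Among the shared sites it stood at the 95.6 and 91.8 percentiles. Both summits fell inside B3gnt9, a gene of a glycosyltransferase, so that this site is closer to other genes than to Cbfb. The same 4 measures were identical for 9 other protein-coding genes, and all 9 were neighbours whose windows hold this same site, among them 4931428F04Rik, B3gnt9 and D230025D16Rik.

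Runx3 (chromosome 4, 135120645 to 135177990, plus strand, 57.3 kb) had no summit of either list in its body or flanks. Of 3325 genes within 1.5 times its length, 1007 (30.3%) likewise had none in either list, and 8493 protein-coding genes of any length shared this pattern, so no gene is named as most like it. The nearest peaks lay beyond the neighbouring gene Clic4. They were a WT peak 109 kb from Runx3 with a fold of 4.35 and no partner, and a shared site 123 kb away whose alphaKO fold was 109.8, ranked 149 in that list.

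Peaks just inside and just outside the 50 kb limit were few. The outermost peaks counted were those of Cbfb, at 35.5 kb and 35.6 kb, and the one of Runx1 at 20.3 kb. The first ones not counted were an alphaKO peak in Clic6 98.2 kb from Runx1 (fold 14.7), an alphaKO peak 122 kb from Runx2 (fold 17.5), the WT peak 109 kb from Runx3, and the peaks 209 kb from Cbfb in Ces2g (folds of 3.41 in WT and 3.62 in alphaKO). No summit of any list lay between 50 kb and 98.2 kb of a member.

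**Figure D4:**
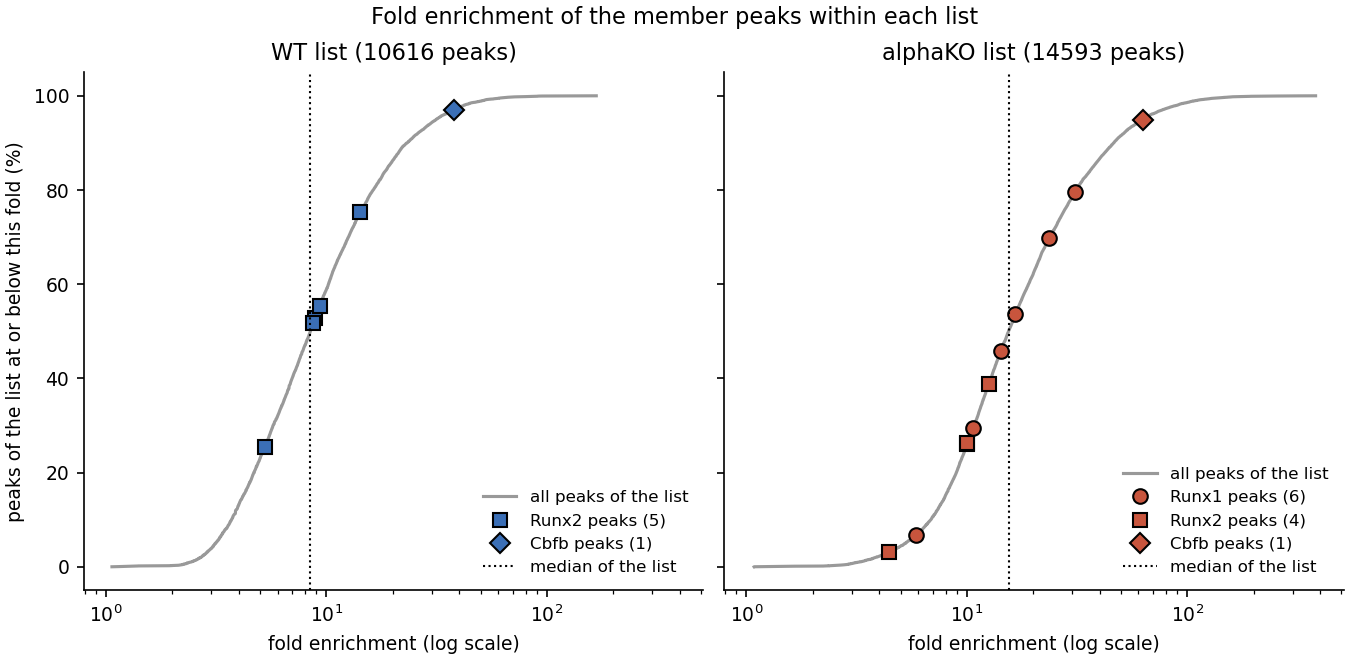
Fold enrichment (horizontal axis, log scale) against the percentage of the list at or below that fold (vertical axis) for all peaks of WT and alphaKO (grey lines), with the member peaks marked. The Cbfb peak is near the top of both lists, 97.1% in WT and 94.9% in alphaKO, and the Runx1 and Runx2 peaks of alphaKO run from 3.15% to 79.5%.

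Across genes, the strongest site in each list was the one in the window of Cbfb, which lies inside B3gnt9 and outside the Cbfb body. In WT, Runx2 followed with 14.2, at the peak that covers the start of Supt3, and Runx1 and Runx3 had no peak. In alphaKO, Runx1 followed with 30.96, then Runx2 with 12.6, and Runx3 had none. These are single libraries, so no spread between samples is known for any step of this order.

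Genes that work with the Runx proteins were taken from 2 lists. Of 17 partners and co-regulators, 13 had summits of both lists within 50 kb, none had summits of a single list, and 4 had none, namely Runx1t1, Sin3a, Ep300 and Crebbp. Over all protein-coding genes, 40.9% had summits of both lists, 14.1% of alphaKO alone, 6.14% of WT alone and 38.8% of neither. These shares are not matched for gene length, which matters for such counts. The 17 genes had a median of 2 summits in each list, beside 0 in WT and 1 in alphaKO over all protein-coding genes. Ets1, an ETS factor that binds DNA together with Runx1, had the strongest WT fold, 31.7 with 4 peaks, and 23.9 with 1 peak in alphaKO. It was followed by the corepressor genes Cbfa2t3 (19.7 with 4 peaks in WT, 31.6 with 3 in alphaKO), Tle3 (19.6 with 8, 26.2 with 3) and Tle4 (15.6 with 3, 42.0 with 5). Tle3 had the most WT peaks of the list.

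Of 6 genes linked to Runx1 in hair follicle and skin, 5 had summits of both lists and Socs4 had none of either. Over all genes the shares were the same 40.9% and 38.8%, again not matched for gene length. Ccnd1, which encodes cyclin D1, had the strongest folds in WT, 44.1 in WT and 49.9 in alphaKO with 2 peaks each. The cell cycle inhibitor gene Cdkn1a had 7 WT and 4 alphaKO peaks (25.9 and 34.7), Lef1, a mediator of Wnt signalling, had 2 and 4 (17.8 and 23.6), and Stat3 had 5 and 5 (15.8 and 51.1). A fold here belongs to the strongest peak in each list, which need not be at the same site.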

How the data were processed

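Peaks were listed for 1 p63 ChIP library per genotype, WT and alphaKO. The submitters' processing notes name Bowtie2, MACS2 2.1.1.20160309 and the mm10 build, without the options or control libraries of the calls. The columns that the authors deposited hold, per the file headers, a pileup (coverage signal), a fold enrichment (ratio), and −log10 of the p-value and of the q-value of every peak. Read totals are unknown, so depth could not be compared.

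From these, summits were assigned to RefSeq genes of GRCm38.p6, the assembly of mm10, with flanks of 50 kb, and 21883 protein-coding genes served as background. Starts and strands came from the RefSeq promoter table. A partner meant at least 1 shared bp, and a shared site a pair of peaks that were each other's nearest partner. Local background was recovered by dividing the pileup plus 1 by the fold and taking 1 away. Intervals are 95% Wilson intervals. No test was made between genotypes. The members, gene lists and rules were chosen with earlier results of these data known. Named genes were the members, genes at their peaks, up to 4 genes of each list by WT fold and the 3 closest patterns per member. The genes given for other reasons were chosen after their values were seen. Alternatives were other flanks, stricter q and fold thresholds, equal list lengths and other overlaps; leaving out peaks with a local background above 50 was added after seeing the data. Tested on simulated data, the code returned the planted peak number for 200 of 200 genes and found 1168 of 1168 planted overlaps. The planted overlaps were exact copies of peaks, so partial overlaps and false partners were not tested. The software was Python 3.11.15 with pandas 2.3.3, NumPy 2.4.6, matplotlib 3.10.9 and SciPy 1.17.1.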

Additional observations from a re-analysis of the deposited data

How the results depend on the processing

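Of 84 main values under an alternative, 68 stayed within 1.5 times of a count or within the interval of a share, and 16 moved further. Runx1 and Runx3 had 0 WT peaks under every alternative run, and Runx1 kept between 4 peaks (equal list lengths) and 7 peaks (100 kb flanks) in alphaKO. A count of 0 could rise only with the 100 kb flanks, since no other alternative adds peaks to a window. The nearest WT summits lay 144 kb from Runx1 and 109 kb from Runx3, beyond those flanks too. Such counts of 0 were thus fixed in advance, and they are among the 68 values that stayed. The peaks of Cbfb numbered 0 in WT and 0 in alphaKO with the gene body alone and with 10 kb flanks, because the site lies outside both. With 50% overlap of both peaks, 3 WT and 3 alphaKO member peaks had a partner in place of 5 and 5, as the widths at 2 Runx2 sites differed. The share of protein-coding genes with a peak became 15.7% in WT and 19.5% in alphaKO with the gene body alone, 26.4% and 30.6% with 10 kb flanks, and 61.0% and 70.4% with 100 kb flanks. It was 42.7% in WT at −log10 q of at least 10, 39.6% in WT and 54.0% in alphaKO at a fold of at least 5, and 47.3% in alphaKO with equal list lengths. The 16 comparisons of a strongest fold left it as it was. They leave out Cbfb with the gene body alone and with 10 kb flanks, where no peak and hence no fold remained. In the others the same strongest peak stayed in the window. No paired analysis was possible because each genotype had 1 library, and none could be left out.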

Other observations

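Besides Runx1, 5 protein-coding genes had no WT summit and at least 6 alphaKO summits within 50 kb, and they are named after their values were seen. Iqch, Pcdh15, Ppargc1a and Sntb1 had 7 alphaKO summits each and Emb had 6. The strongest alphaKO folds were 63.1 at Sntb1, 52.2 at Emb, 49.4 at Iqch, 37.3 at Pcdh15 and 30.97 at Ppargc1a, a co-activator gene of energy metabolism. The genes lie on chromosomes 15, 13, 9, 10 and 5, in that order, and none shares its chromosome with Runx1. No replicate library was at hand to see whether these places differ again.

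Marker genes of other cell types of skin were also scanned with flanks of 50 kb, as positions of p63 peaks and not as a measure of cell content. Summits were found at 2 of 3 melanocyte genes in each list, at 1 of 3 immune genes in WT and 2 in alphaKO, at 1 of 3 fibroblast genes in WT and 3 in alphaKO, and at 1 of 2 endothelial genes in each list. Over all protein-coding genes the shares were 47.1% in WT and 55.0% in alphaKO, with 14.1% in alphaKO alone. Dcn, Lum and Cd207, a gene of Langerhans cells, had 2, 1 and 1 alphaKO summits, fewer than Runx1, and no WT summit. Dcn and Lum lie in reach of the same alphaKO peak with a fold of 92.6, and the fold at Cd207 was 11.8. Dct, Pmel, Cd3e, Col1a1 and Pecam1 had summits of both lists. Ptprc, Tyr and Cdh5 had none in either list.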
